A study of Homo sapiens with 16 samples.

Results

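Small nucleolar RNA host genes were examined in JSL1, a clone of the Jurkat human T cell leukaemia line, with and without editing of exon 9 of the histone deacetylase gene HDAC7. The set was chosen by gene symbol, with earlier results of these data known. It held 10 genes, which are GAS5, SNHG1, SNHG5, SNHG6, SNHG7, SNHG8, SNHG12, SNHG15, SNHG16 and EPB41L4A-AS1, of 58295 genes in the GENCODE 29 annotation. All 10 were found in the deposited quantifications, and all 10 passed the filter on low counts that left 18073 genes for testing. The study edited the HDAC7 locus by CRISPR-Cas9 to obtain cells that include exon 9 (labelled iE9) or skip it (labelled dE9), and asked how the splice form affects gene expression. PolyA-selected RNA was sequenced from 6 groups. These were iE9 cells with PMA (3 libraries) and unstimulated (3), dE9 cells with PMA (3) and unstimulated (3), and wild-type (WT) JSL1 cells with PMA (2) and unstimulated (2). PMA (phorbol 12-myristate 13-acetate), a protein kinase C activator that mimics part of T cell receptor signalling, was given at 20 ng/mL for 48 hours, and the unstimulated cells had growth medium alone. The sample labels give 48 hours for the unstimulated cells too, whereas the series' design text names 0 hours, so time in culture and PMA may not be separated in the comparisons with PMA. All cells carry the leukaemic Jurkat background. The labels do not say whether each edited line is a single clone, nor whether replicates were separate cultures; the p-values rest on differences among these libraries, part of which may be technical.

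Small nucleolar RNAs (snoRNAs) guide chemical modification of ribosomal RNA. Box C/D snoRNAs guide 2′-O-methylation and box H/ACA snoRNAs guide pseudouridylation. In human cells most of them are cut from introns of host genes. The hosts described here are long non-coding RNAs: the snoRNAs are released from the introns, while the spliced, polyadenylated exons carry no long conserved reading frame. Several of these spliced RNAs are known to begin with a run of pyrimidines, as messages for ribosomal proteins do, to be loaded on ribosomes, and to be removed by nonsense-mediated decay. GAS5 was first described as an RNA that accumulates when cell growth is arrested, and its level in T cells is known to follow growth state and mTOR activity. PolyA selection captures the spliced host RNA and not the mature snoRNA, so the values below are levels of the host RNA only.

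The libraries held 14536537 to 21888896 estimated counts, and the 10 genes had from 115 counts (SNHG12, its lowest library) to 3944 counts (SNHG5, its highest). The share of HDAC7 transcript abundance carrying exon 9 (chr12:47795906-47796016, GENCODE 29 on hg38) was 0%, 0.68% and 0% in dE9 cells with PMA and 2.14%, 0.84% and 7.37% in unstimulated dE9 cells. It was 42.3%, 63.0% and 44.3% in libraries labelled iE9 with PMA and 58.3%, 51.8% and 74.9% in unstimulated iE9 libraries, against 43.1% and 53.8% in WT cells with PMA and 46.6% and 47.5% in unstimulated WT cells. The exon 9 share of the iE9 libraries was therefore not separated from WT under PMA (1.44 points higher, two-sided exact permutation p = 0.9, smallest possible 0.1), and a direction given for the libraries labelled iE9 against WT rests on the label. The HDAC7 gene as a whole rose with PMA, by 1.06 on the log2 scale in iE9, 1.82 in dE9 and 2.21 in WT cells, and was higher in iE9 than in dE9 cells with PMA (0.90, adjusted p = 0.0393). Its level with PMA was 210, 193 and 165 TPM in iE9, 63.25, 68.7 and 132 TPM in dE9 and 116 and 107 TPM in WT cells. Unstimulated, it was 103, 61.0 and 85.4 TPM in iE9, 26.8, 21.2 and 24.1 TPM in dE9 and 20.55 and 24.9 TPM in WT cells. Total HDAC7 thus also differed between iE9 and the other lines. The iE9 libraries numbered 1 stood apart: mitochondrial genes took 12.81% of counts with PMA and 9.17% unstimulated, against 3.0% to 6.39% in the other libraries. Of the 8 T cell markers 7 were above 1 TPM in every library, and their summed level was 3020 to 4980 TPM with PMA and 1780 to 3150 TPM unstimulated. The summed markers of other cell types were 14.8 to 539 TPM with PMA and 8.94 to 188 TPM unstimulated for B cells, 0.171 to 25.5 and 0.119 to 1.41 TPM for myeloid cells, 2.22 to 87.0 and 1.97 to 11.3 TPM for erythroid cells, and 3.04 to 8.08 and 1.29 to 4.68 TPM for epithelial and fibroblast markers. No marker was at 0 in every library. Their part in the results was not tested.

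The start regions are shown because a run of pyrimidines at the start of the transcript is a known feature of many genes of this class. RefSeq promoter sequences (GRCh38.p14) were matched for 8 of the 10 genes, without SNHG6 and SNHG15. Each line gives the 60 bases from 30 before to 30 after the RefSeq start, read 5′ to 3′ on the strand of the gene, with the longest uninterrupted run of C or T in capitals. SNHG1 has another run of the same length just after the start, and only the first is in capitals. The regions are chr1:173869016-173869075 (minus strand) for GAS5, chr11:62855856-62855915 (minus) for SNHG1, chr6:85678704-85678763 (minus) for SNHG5, chr9:136728155-136728214 (minus) for SNHG7, chr4:118278732-118278791 (plus) for SNHG8, chr1:28581844-28581903 (minus) for SNHG12, chr17:76557734-76557793 (plus) for SNHG16 and chr5:112160496-112160555 (plus) for EPB41L4A-AS1.
GAS5: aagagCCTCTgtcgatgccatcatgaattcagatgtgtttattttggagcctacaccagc
SNHG1: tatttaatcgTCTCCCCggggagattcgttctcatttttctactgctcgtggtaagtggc
SNHG5: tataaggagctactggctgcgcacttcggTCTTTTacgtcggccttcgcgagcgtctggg
SNHG7: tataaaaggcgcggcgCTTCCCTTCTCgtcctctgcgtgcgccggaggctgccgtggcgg
SNHG8: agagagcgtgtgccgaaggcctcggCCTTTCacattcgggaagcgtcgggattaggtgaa
SNHG12: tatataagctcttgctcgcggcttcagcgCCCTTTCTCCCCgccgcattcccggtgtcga
SNHG16: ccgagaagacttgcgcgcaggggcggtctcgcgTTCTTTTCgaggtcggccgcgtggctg
EPB41L4A-AS1: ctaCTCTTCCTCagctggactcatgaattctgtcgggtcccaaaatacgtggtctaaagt

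The runs were 12 bases long in SNHG12, 11 in SNHG7, 9 in EPB41L4A-AS1, 8 in SNHG16, 7 in SNHG1, 6 in SNHG5 and SNHG8 and 5 in GAS5, against a median of 5 over 35116 RefSeq promoters. A run of 8 or more, searched on the gene's strand only, was present in 4 of the 8 windows and in 23.8% of all windows of the same length. In SNHG5 and SNHG12 the run began 1 base before the annotated start, and in SNHG8 it began 5 bases before. In SNHG16 it began 3 bases after the start. Counted from the start, the runs of SNHG7, SNHG1, GAS5 and EPB41L4A-AS1 began at -14, -20, -25 and -27 and ended before it. The runs of 8 or more in SNHG7 and EPB41L4A-AS1 thus lie outside the transcript as RefSeq places it. The E-box letters CACGTG, which read the same on both strands, were found in the 300-base promoter of SNHG7 alone among the 8, and in 7.26% of all promoters. These matches describe the letters in the windows only. The RefSeq and GENCODE starts coincided for SNHG7 and EPB41L4A-AS1, lay 2 to 53 bp apart for SNHG16, SNHG5, SNHG1 and SNHG8, and lay 163 bp apart for GAS5 and 1259 bp for SNHG12. The windows of GAS5, SNHG8 and SNHG12 therefore do not hold the GENCODE start of the gene, and no run was searched there.

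The annotation places 24 snoRNA genes inside 9 of the 10 hosts, 12 of them named as box C/D (SNORD) and 10 as box H/ACA (SNORA). The remaining host, GAS5, had none in this annotation, which need not mean that it hosts none. Not all 24 entries are distinct snoRNAs. SNORA17B and SNORA16A are each entered more than once at overlapping positions, and RF00560 overlaps SNORA17A. The 5 below are shown because their hosts carry the results. They are SNORD25 at chr11:62855564-62855632 (minus) in SNHG1, SNORD1B at chr17:76561109-76561192 (plus) in SNHG16, SNORA17A at chr9:136726747-136726879 (minus) in SNHG7, SNORA24 at chr4:118279190-118279320 (plus) in SNHG8 and SNORA9 at chr7:44985378-44985510 (minus) in SNHG15, in hg38. Capitals mark the box C letters TGATGA within the first 20 bases and the box D letters CTGA within the last 20 of the C/D snoRNAs, and ACA within the last 10 bases of the H/ACA snoRNAs.
SNORD25: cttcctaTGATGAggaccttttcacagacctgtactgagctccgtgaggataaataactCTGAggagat
SNORD1B: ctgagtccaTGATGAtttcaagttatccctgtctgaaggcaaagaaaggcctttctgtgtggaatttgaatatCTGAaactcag
SNORA17A: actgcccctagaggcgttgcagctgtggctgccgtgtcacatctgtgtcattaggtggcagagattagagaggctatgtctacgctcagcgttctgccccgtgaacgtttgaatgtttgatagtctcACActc
SNORA24: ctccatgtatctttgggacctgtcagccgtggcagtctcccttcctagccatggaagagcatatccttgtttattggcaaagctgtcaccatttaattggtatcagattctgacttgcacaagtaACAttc
SNORA9: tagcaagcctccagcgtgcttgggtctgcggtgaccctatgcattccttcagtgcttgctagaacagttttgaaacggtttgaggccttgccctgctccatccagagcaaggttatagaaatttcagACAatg

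Both C/D boxes were found in these positions in 187 of all 288 annotated SNORD genes (64.9%), and ACA in 134 of 149 SNORA genes (89.9%), searched on the snoRNA's own strand. SNORD25 and SNORD1B, shown above, had both, as did SNORD27 and SNORD30 of SNHG1. Only the box D letters were found in SNORD22, SNORD26 and SNORD28 of SNHG1 and in SNORD1A and SNORD1C of SNHG16. In these polyA-selected libraries 17 of the 24 snoRNA genes had no count in any library and none exceeded 4.44 estimated counts in a library. No level of a snoRNA is given for that reason.

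In unstimulated WT cells the level per transcript length ran over a wide range. SNHG5 stood highest at 687 ± 87.5 TPM, followed by GAS5 at 457 ± 1.64 TPM and SNHG6 at 409 ± 8.83 TPM (SD, n = 2 each). SNHG1 (205 ± 0.27 TPM), SNHG8 (183 ± 10.6 TPM), SNHG15 (120 ± 13.4 TPM) and SNHG7 (83.8 ± 7.96 TPM) followed. SNHG16 (44.1 ± 0.312 TPM) and EPB41L4A-AS1 (41.1 ± 5.15 TPM) overlapped each other, and SNHG12 was lowest at 29.7 ± 1.09 TPM. In WT cells with PMA the order differed: SNHG5 (753 ± 48.0 TPM) and GAS5 (352 ± 27.6 TPM) still led, while SNHG15 reached 284 ± 18.8 TPM and overlapped SNHG6 (288 ± 27.7 TPM). SNHG1, at 80.2 ± 5.53 TPM, then stood below SNHG8 (113 ± 1.34 TPM), and EPB41L4A-AS1 (56.4 ± 21.2 TPM) overlapped SNHG7 (46.6 ± 2.51 TPM). SNHG16 (20.5 ± 0.822 TPM) and SNHG12 (18.7 ± 1.25 TPM) were the lowest pair. Levels with n = 2 have a poorly known SD.

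**Figure D1:**
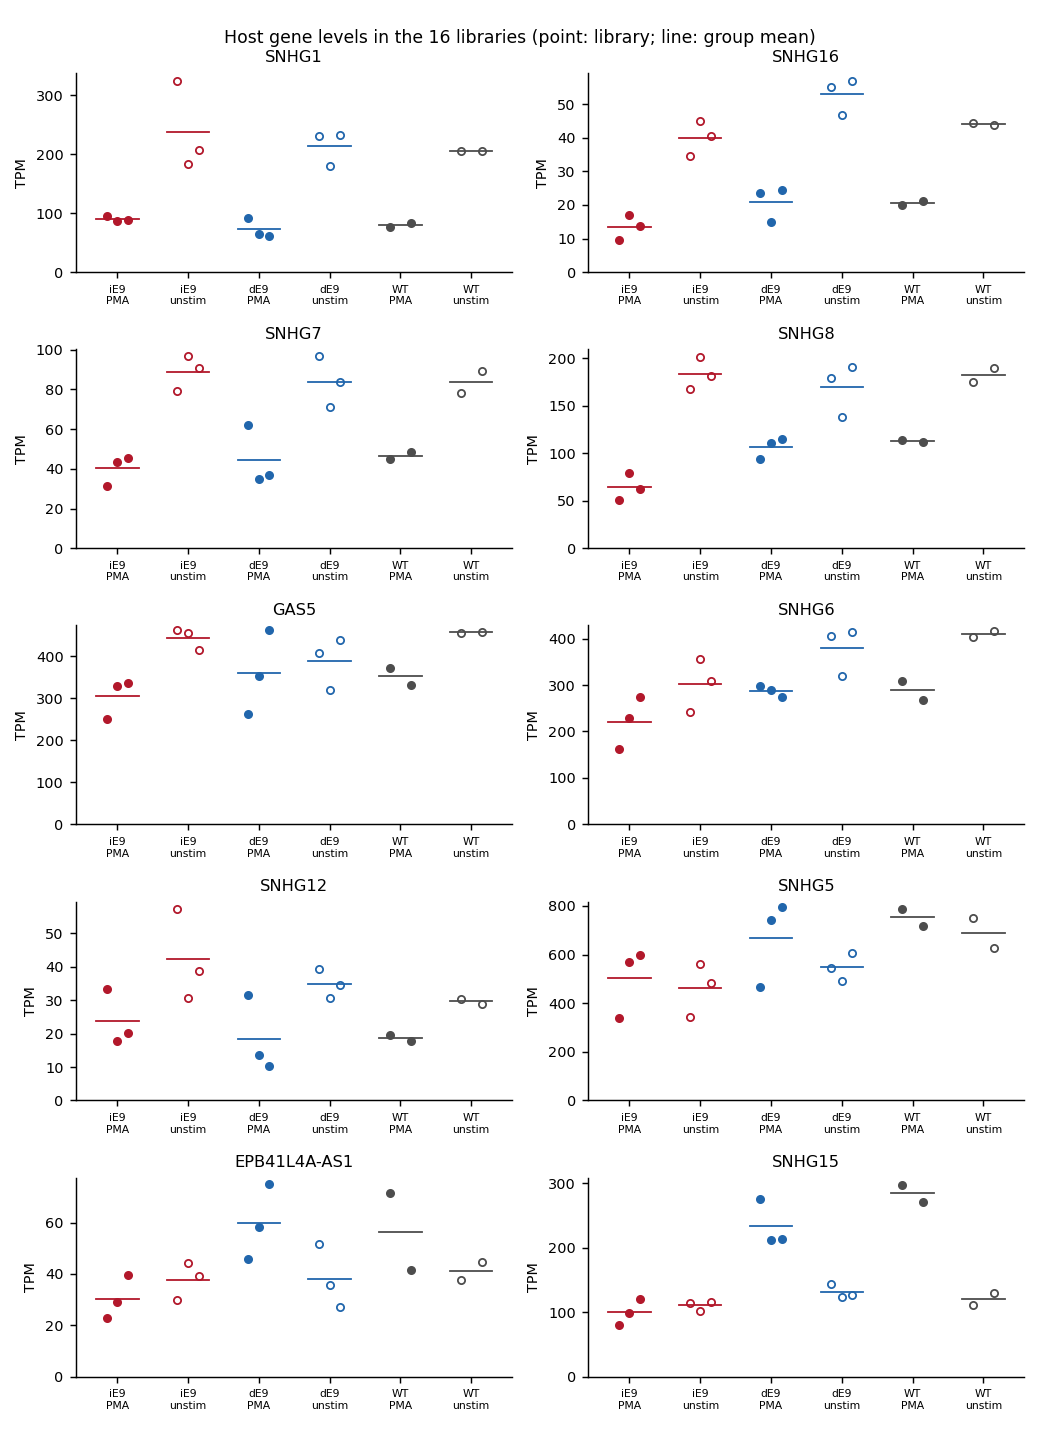
TPM of each host gene (y axis, linear, a scale of its own per panel) in all 16 libraries, with the groups in the order iE9, dE9 and WT along the x axis and PMA (filled points) left of unstimulated (open points); points are libraries and horizontal lines are group means. SNHG1, SNHG7 and SNHG16 sit lower with PMA in every line, while SNHG15 sits higher with PMA in dE9 and WT cells but not in iE9 cells.

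Stimulation with PMA lowered SNHG1, SNHG16 and SNHG7 in all lines, with folds of the fitted counts between 1.91 and 3.54, and split the lines at SNHG15, which rose in dE9 and WT cells and did not rise in iE9 cells. SNHG8 fell in iE9 and dE9 cells, and GAS5 and SNHG6 fell in iE9 cells. SNHG5, SNHG12 and EPB41L4A-AS1 did not pass the test in any line. In all, 6 of the 10 genes were called lower and none higher in iE9 cells, 4 lower and 1 higher in dE9 cells, and 3 lower and 1 higher in WT cells (edgeR quasi-likelihood test, Benjamini-Hochberg adjusted p under 0.05 over all genes). PMA changed a large part of all genes tested: 27.1% were called in iE9 cells (14.4% lower, 12.6% higher), 33.5% in dE9 cells (16.5% lower, 17.1% higher) and 22.3% in WT cells (11.3% lower, 11.1% higher). The median log2 change of the 10 genes was -0.86 in iE9, -0.40 in dE9 and -0.55 in WT cells, beside -0.01, 0.06 and 0.03 for all genes. These are bulk RNA measurements, in which fewer cells of a type and less RNA per cell cannot be told apart.

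**Figure D2:**
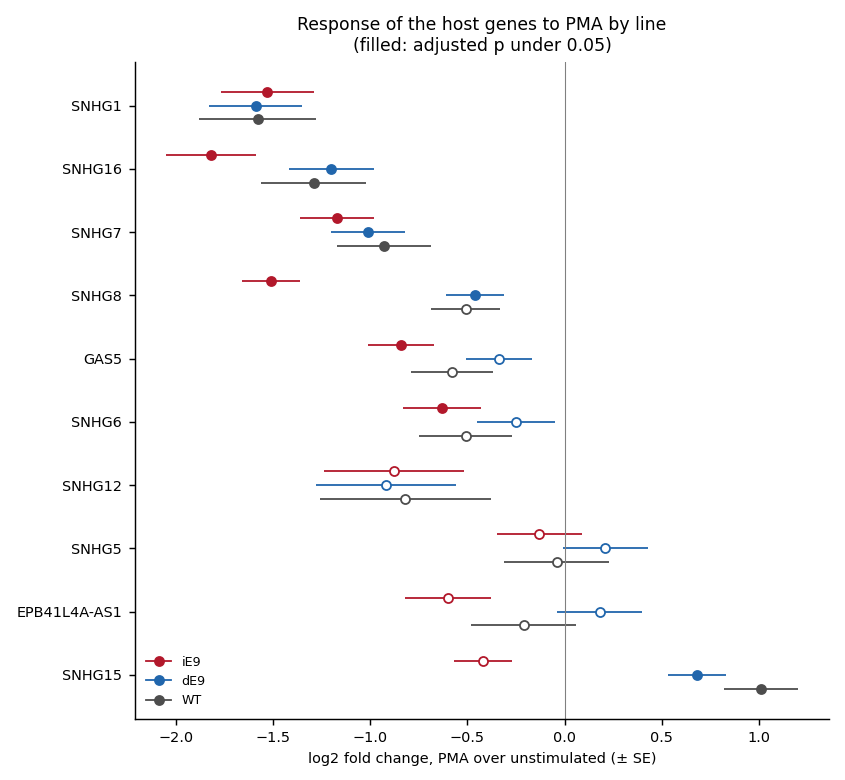
Log2 fold change of PMA over unstimulated (x axis, with SE bars) of the 10 host genes (y axis) in iE9 (red), dE9 (blue) and WT cells (grey); filled points passed the adjusted p threshold. SNHG1, SNHG16 and SNHG7 lie left of 0 and filled in all lines, and SNHG15 lies at -0.42 in iE9 cells against 0.68 in dE9 and 1.01 in WT cells.

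SNHG1, which hosts a cluster of box C/D snoRNAs including SNORD25 and SNORD27, lies at chr11:62851988-62855914 on the minus strand. It had 95.4, 86.9 and 89.0 TPM in iE9 cells with PMA, against 324, 184 and 207 TPM in unstimulated iE9 cells. It had 91.8, 63.9 and 61.6 TPM in dE9 cells with PMA, against 231, 181 and 232 TPM in unstimulated dE9 cells, and 76.3 and 84.1 TPM in WT cells with PMA, against 205 and 205 TPM in unstimulated WT cells. Every PMA library lay below every unstimulated library of any line. The log2 change was -1.53 in iE9 (SE 0.24, adjusted p = 0.000445), -1.59 in dE9 (SE 0.24, adjusted p = 0.000232) and -1.58 in WT cells (SE 0.30, adjusted p = 0.00216).

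SNHG16 hosts SNORD1A, SNORD1B and SNORD1C and lies at chr17:76557766-76565348 on the plus strand. Its levels were 9.42, 17.2 and 13.7 TPM in iE9 cells with PMA, against 34.6, 45.1 and 40.6 TPM in unstimulated iE9 cells. In dE9 cells they were 23.4, 14.9 and 24.4 TPM with PMA and 55.1, 46.9 and 56.9 TPM unstimulated, and in WT cells 19.9 and 21.1 TPM with PMA and 44.3 and 43.9 TPM unstimulated. No PMA library reached the lowest unstimulated one. The log2 change was -1.82 in iE9 (SE 0.23, adjusted p = 6.69e-05), -1.20 in dE9 (SE 0.22, adjusted p = 0.000875) and -1.29 in WT cells (SE 0.27, adjusted p = 0.00419).

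SNHG7, host of SNORA17A and SNORA17B at chr9:136721366-136728184 on the minus strand, followed the same direction at smaller size. It stood at 31.6, 43.6 and 45.5 TPM in iE9 cells with PMA and 79.0, 96.8 and 90.8 TPM in unstimulated iE9 cells, at 62.3, 34.9 and 36.9 TPM in dE9 cells with PMA and 96.9, 71.2 and 83.9 TPM in unstimulated dE9 cells, and at 44.8 and 48.4 TPM in WT cells with PMA and 78.2 and 89.4 TPM in unstimulated WT cells. Groups did not overlap within any line. The log2 change was -1.17 in iE9 (SE 0.19, adjusted p = 0.000608), -1.01 in dE9 (SE 0.19, adjusted p = 0.00114) and -0.93 in WT cells (SE 0.24, adjusted p = 0.0116). The WT call did not hold without unstimulated library 2 (adjusted p = 0.0844), PMA library 1 (0.0971) or PMA library 2 (0.0783).

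SNHG8, host of SNORA24 at chr4:118278709-118279823 on the plus strand, had its largest log2 change in iE9 cells. The difference of that response from the other lines did not pass in edgeR (adjusted p = 0.234 against dE9 and 0.352 against WT cells), while DESeq2 called it. Its levels were 51.0, 79.5 and 62.3 TPM in iE9 cells with PMA, against 168, 202 and 181 TPM in unstimulated iE9 cells. They were 94.4, 110 and 115 TPM in dE9 cells with PMA and 180, 138 and 191 TPM in unstimulated dE9 cells, and 114 and 112 TPM in WT cells with PMA and 175 and 190 TPM in unstimulated WT cells. All PMA libraries lay below all unstimulated ones, and the iE9 libraries with PMA lay below every other library. The log2 change was -1.51 in iE9 (SE 0.15, adjusted p = 1.44e-05), -0.46 in dE9 (SE 0.15, adjusted p = 0.0258) and -0.51 in WT cells (adjusted p = 0.0551, not called). The dE9 call did not hold without unstimulated library 1 or 3 or PMA library 1 or 3 (adjusted p = 0.103, 0.109, 0.0703 and 0.0645), nor without the filter on low counts (adjusted p = 0.164) or with only the compared groups in the fit (0.086).

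GAS5, the growth-arrest-specific host at chr1:173863900-173868882 on the minus strand, had 251, 328 and 337 TPM in iE9 cells with PMA, against 463, 456 and 415 TPM in unstimulated iE9 cells, without overlap. In dE9 cells the levels overlapped, at 263, 354 and 462 TPM with PMA and 408, 319 and 439 TPM unstimulated. In WT cells they were 372 and 333 TPM with PMA and 456 and 458 TPM unstimulated. GAS5 fell in iE9 cells (log2 change -0.84, SE 0.17, adjusted p = 0.00286) and was not called in dE9 (-0.34, adjusted p = 0.153) or WT cells (-0.58, adjusted p = 0.0622).

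SNHG6, at chr8:66921684-66926398 on the minus strand, had 161, 229 and 274 TPM in iE9 cells with PMA, against 242, 355 and 309 TPM in unstimulated iE9 cells, with overlap. It fell in iE9 cells by the test (log2 change -0.63, SE 0.20, adjusted p = 0.03), a call that did not hold without unstimulated library 2 or 3 (adjusted p = 0.136 and 0.0876), without PMA library 1 or 2 (0.111 and 0.071) or with only the compared groups in the fit (0.0819). In dE9 cells it had 298, 288 and 273 TPM with PMA and 406, 319 and 415 TPM unstimulated, and in WT cells 308 and 269 TPM with PMA and 403 and 416 TPM unstimulated. The log2 changes there were -0.25 (adjusted p = 0.365) and -0.51 (adjusted p = 0.146), neither of which passed.

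SNHG12, host of SNORA16A, SNORA44, SNORA61 and SNORD99 at chr1:28578538-28583132 on the minus strand, varied widely between replicates. It had 33.3, 17.9 and 20.2 TPM in iE9 cells with PMA and 57.2, 30.7 and 38.8 TPM in unstimulated iE9 cells, 31.4, 13.7 and 10.3 TPM in dE9 cells with PMA and 39.5, 30.7 and 34.5 TPM in unstimulated dE9 cells, and 19.6 and 17.8 TPM in WT cells with PMA and 30.4 and 28.9 TPM in unstimulated WT cells. The libraries numbered 1 of both edited lines were the highest of their group, with and without PMA. The log2 change was -0.88 in iE9 (adjusted p = 0.0795), -0.92 in dE9 (adjusted p = 0.0596) and -0.82 in WT cells (adjusted p = 0.195). With libraries of the same number within a line treated as a block it passed in iE9 (-0.89, adjusted p = 0.0106) and in dE9 cells (-1.06, adjusted p = 0.00409).

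SNHG5, at chr6:85660950-85678748 on the minus strand and host of SNORD50B, stayed the highest of the 10 in most libraries and showed no called change. Its levels were 338, 569 and 598 TPM in iE9 cells with PMA and 341, 562 and 483 TPM in unstimulated iE9 cells, 467, 743 and 795 TPM in dE9 cells with PMA and 544, 490 and 608 TPM in unstimulated dE9 cells, and 787 and 719 TPM in WT cells with PMA and 749 and 625 TPM in unstimulated WT cells. The groups overlapped in each line, and the log2 changes were -0.13 (SE 0.22) in iE9, 0.21 (SE 0.22) in dE9 and -0.04 (SE 0.27) in WT cells.

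EPB41L4A-AS1, host of SNORA13 at chr5:112160526-112164276 on the plus strand, had 22.7, 28.9 and 39.6 TPM in iE9 cells with PMA and 29.7, 44.1 and 39.3 TPM in unstimulated iE9 cells. It had 45.8, 58.5 and 74.9 TPM in dE9 cells with PMA and 51.8, 35.7 and 27.0 TPM in unstimulated dE9 cells, and 71.4 and 41.4 TPM in WT cells with PMA and 37.5 and 44.8 TPM in unstimulated WT cells. The log2 change of counts was -0.60 in iE9 (adjusted p = 0.052, and 0.042 with libraries blocked by number within a line), 0.18 in dE9 (adjusted p = 0.568) and -0.21 in WT cells (adjusted p = 0.612). The WT value was 0.37 when transcript length was taken into the fit, so its sign follows the scale. EPB41L4A-AS1-204, a transcript of 292 nt, made up 49.9% of the gene's TPM in WT cells with PMA and 27.0% in unstimulated WT cells. A shorter transcript gives more TPM for the same count.

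SNHG15, host of SNORA9 at chr7:44983023-44986961 on the minus strand, was the only one of the 10 that rose. It had 275, 212 and 214 TPM in dE9 cells with PMA, against 144, 123 and 126 TPM in unstimulated dE9 cells, and 298 and 271 TPM in WT cells with PMA, against 110.8 and 130 TPM in unstimulated WT cells. In iE9 cells it had 80.3, 98.0 and 121 TPM with PMA, against 114, 102 and 115 TPM unstimulated, which overlapped. On the scale of counts per library total (CPM), iE9 cells had 61.6, 62.8 and 76.9 with PMA and 95.7, 78.7 and 94.5 unstimulated, which did not overlap. The log2 change was 0.68 in dE9 (SE 0.15, adjusted p = 0.00306), 1.01 in WT (SE 0.19, adjusted p = 0.00193) and -0.42 in iE9 cells (SE 0.15, adjusted p = 0.0535, not called). With the block of libraries numbered alike within a line, the iE9 value passed as lower (adjusted p = 0.0117).

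The lines were then compared at matched treatment. These comparisons are between cell lines and do not isolate the HDAC7 splice form. Under PMA the share of HDAC7 abundance carrying the edited exon averaged 49.86% in iE9, 0.23% in dE9 and 48.42% in WT cells. Total HDAC7 under PMA averaged 351 CPM in iE9, 188 CPM in dE9 and 241 CPM in WT cells. Whether splice form, total HDAC7 or differences between clones underlie the calls below was not tested. With PMA, 2 of the 10 genes were called lower in iE9 than in dE9 cells, and the same 2, SNHG15 and SNHG8, were called lower in iE9 than in WT cells. Over all genes 2.61% were called between iE9 and dE9 cells (1.51% lower, 1.10% higher) and 1.12% between iE9 and WT cells (0.791% lower, 0.332% higher). SNHG15 had 61.6, 62.8 and 76.9 CPM in iE9 cells with PMA, against 181, 149 and 143 CPM in dE9 and 201 and 182 CPM in WT cells with PMA. Every iE9 library lay below every dE9 and WT library, with a log2 difference of -1.23 against dE9 (SE 0.15, adjusted p = 0.00114) and -1.51 against WT (SE 0.17, adjusted p = 0.000691). The call against dE9 narrowly missed the threshold with only the compared groups in the fit (adjusted p = 0.0507).

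SNHG8 with PMA had 16.8, 20.5 and 18.1 CPM in iE9 cells, against 30.1, 37.5 and 33.3 CPM in dE9 and 36.1 and 32.1 CPM in WT cells, again without overlap. The log2 difference was -0.87 against dE9 (SE 0.15, adjusted p = 0.00932) and -0.89 against WT cells (SE 0.17, adjusted p = 0.0189). The call against dE9 did not hold with only the compared groups in the fit (adjusted p = 0.152). The call against WT did not hold without WT library 1 or 2 with PMA (adjusted p = 0.282 and 0.112), without iE9 library 1 or 3 with PMA (0.0767 and 0.0764), with transcript length in the fit (0.0673) or without both iE9 libraries numbered 1 (0.0557). Of the others, SNHG16 (-0.87, adjusted p = 0.0533), EPB41L4A-AS1 (-0.80, adjusted p = 0.0658) and SNHG6 (-0.59, adjusted p = 0.127) stood nearest the threshold between iE9 and dE9 cells.

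**Figure D3:**
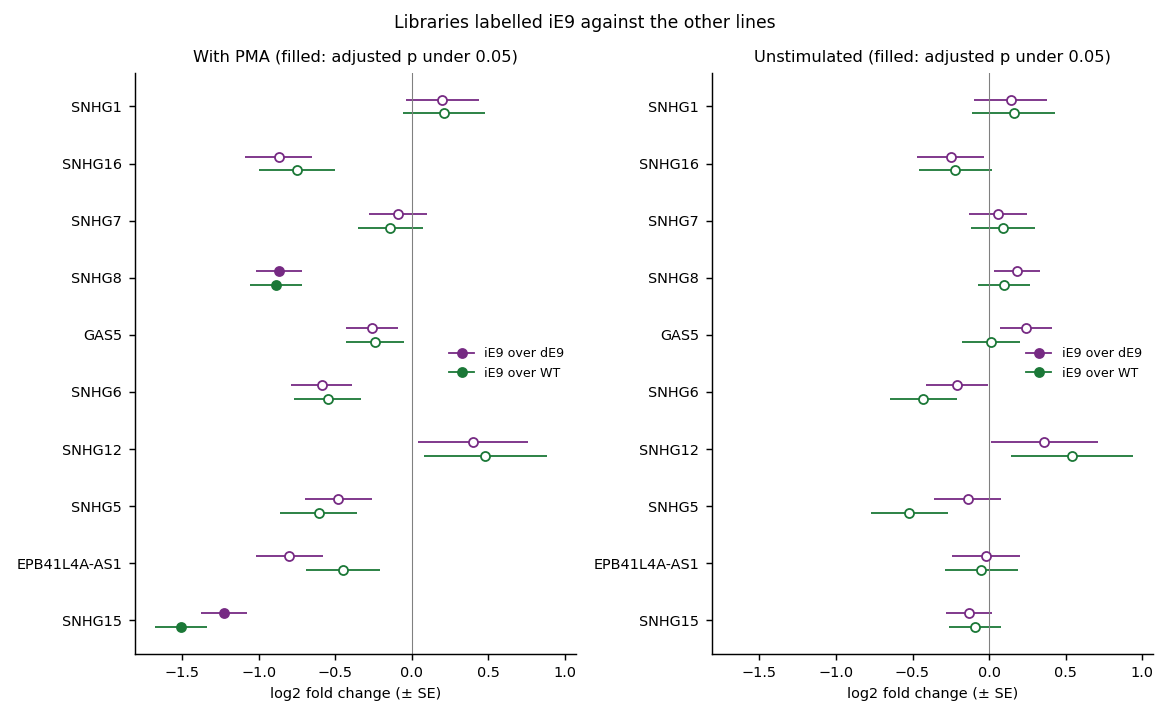
Log2 fold change of iE9 over dE9 (purple) and iE9 over WT cells (green) on the x axis, with SE bars, for the 10 host genes (y axis), with PMA on the left and unstimulated on the right; filled points passed the adjusted p threshold. With PMA, SNHG15 and SNHG8 are filled and left of 0 in both comparisons, and no unstimulated point is filled.

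Unstimulated cells showed no called difference in these genes. None of the 10 passed between iE9 and dE9 cells, where 1.72% of all genes did (0.764% lower, 0.957% higher), or between iE9 and WT cells, where 1.38% did (0.703% lower, 0.675% higher), and none had an unadjusted p under 0.05 or was called by DESeq2 in either. Over all genes 15.1% had an unadjusted p under 0.05 in each of these comparisons. DESeq2 called 867 genes between iE9 and dE9 cells and 846 between iE9 and WT cells. Between dE9 and WT cells no gene at all passed in edgeR in either treatment (0%), with 560 genes at an unadjusted p under 0.05 and 21 called by DESeq2 unstimulated, and 459 and 9 with PMA. None of the 10 was among them. Over all genes this 0 did not hold in edgeR without the filter on low counts, with 132 called unstimulated and 159 with PMA, or without dE9 library 1 with PMA, with 174 called. SNHG15 differed by -0.28 on the log2 scale between dE9 and WT cells with PMA (adjusted p = 1).

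The test of whether the PMA response itself differed between lines compared the changes directly. For SNHG15 the response of iE9 minus that of WT was -1.42 on the log2 scale (SE 0.24) and that of iE9 minus that of dE9 was -1.10 (SE 0.21). Neither passed adjustment over all genes in edgeR (adjusted p = 0.13 and 0.234), and no gene of the 18073 did (0% called). DESeq2 called both (adjusted p = 1.65e-05 against WT and 0.000824 against dE9), and edgeR with libraries blocked by number within a line also did (0.0117 and 0.0401). SNHG8 gave -1.04 for iE9 minus dE9 and -0.99 for iE9 minus WT (adjusted p = 0.234 and 0.352 in edgeR, 0.00218 and 0.0237 in DESeq2). At an unadjusted p under 0.05, 3 of the 10 genes and 1239 of all genes stood out for iE9 minus dE9, and 2 of the 10 and 1022 of all for iE9 minus WT, while DESeq2 called 2 of the 10 in each, of 130 and 62 genes in all. For dE9 minus WT none of the 10 did by either tool, beside 282 genes at an unadjusted p under 0.05 and 1 called by DESeq2. The iE9 and dE9 responses are each set against the same WT libraries or against each other, so these comparisons share samples.

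Most of the genes rest on a few of their annotated transcripts. Over all libraries SNHG5-202 held 88.74% of SNHG5 TPM and SNHG7-202 held 74.37% of SNHG7, while SNHG6 was split between SNHG6-203 (54.41%) and SNHG6-205 (30.83%), SNHG16 between SNHG16-202 (43.08%) and SNHG16-207 (35.04%), and SNHG8 between SNHG8-201 (44.13%), SNHG8-205 (24.84%) and SNHG8-203 (23.04%). GAS5-221 (28.26%) and GAS5-218 (26.32%) led in GAS5, SNHG1-211 (26.52%) in SNHG1, SNHG15-203 (49.24%) in SNHG15 and SNHG12-202 (43.80%), which keeps an intron, in SNHG12. Among the 130 annotated transcripts of the 10 genes, 104 were tested. PMA lowered 4 in iE9 cells and 3 in dE9 cells and raised none, beside 2.39% and 4.01% of all transcripts called in either direction. These counts lie near those shares and do not set the 10 genes apart. In WT cells none passed in edgeR (1.40% of all transcripts did). At an unadjusted p under 0.05 there were 28 of the 104 in iE9, 26 in dE9 and 16 in WT cells. The share of all transcripts at that threshold was not counted, so nothing is read from these counts. SNHG1-211 fell in iE9 (log2 change -1.28, adjusted p = 0.0219) and dE9 cells (-1.46, adjusted p = 0.00772), and so did SNHG16-202 (-1.97, adjusted p = 0.00535, and -1.21, adjusted p = 0.0403), while SNHG16-207 fell in iE9 cells (-1.80, adjusted p = 0.0357). SNHG8 split by transcript: SNHG8-201 averaged 32.7 TPM with PMA and 76.4 TPM unstimulated in iE9 cells (log2 change -1.36, SE 0.17, adjusted p = 0.00136), but 61.6 and 66.3 TPM in dE9 and 63.4 and 58.8 TPM in WT cells, where its log2 changes were -0.11 and 0.04. SNHG8-203 averaged 9.85 TPM with PMA and 52.5 TPM unstimulated in dE9 cells (log2 change -2.40, adjusted p = 0.0386), with 11 and 50.5 TPM in iE9 (-2.41, adjusted p = 0.0519) and 14.9 and 48.5 TPM in WT cells (-1.77, adjusted p = 0.291). Salmon divides reads between overlapping transcripts by a model, so these values are less certain than the gene sums.

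No tested transcript of SNHG15 passed with PMA in any line by edgeR. Its leading transcript, SNHG15-203, averaged 46.2 TPM with PMA and 39.3 TPM unstimulated in iE9 cells, against 133 and 56.0 TPM in dE9 and 161 and 51.2 TPM in WT cells. Its log2 changes of 0.07 in iE9, 1.24 in dE9 and 1.58 in WT cells did not pass (adjusted p = 0.983, 0.0641 and 0.0962). It made up 44.6% of SNHG15 TPM with PMA and 35.7% unstimulated in iE9 cells, 57.1% and 42.7% in dE9 cells and 56.4% and 42.5% in WT cells.

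Some annotated host transcripts keep an intron, and 6 of the 10 genes have such transcripts in the annotation. In GAS5 they took 41.0%, 16.2% and 23.0% of the gene's TPM in iE9 cells with PMA, against 60.8%, 27.9% and 38.7% in unstimulated iE9 cells. They took 29%, 17.3% and 16% in dE9 cells with PMA and 45.5%, 43.8% and 53.1% unstimulated, and 21.0% and 21.9% in WT cells with PMA and 39.3% and 37.3% unstimulated. The PMA libraries were lower as a group in every line, with overlap in iE9 cells, where the libraries numbered 1, those with the high mitochondrial share, were the highest of each group. The difference was -15.73 points in iE9, -26.67 in dE9 and -16.79 in WT cells, and -19.73 over all lines (two-sided exact permutation within lines, p = 0.0025, smallest possible 0.000833). Adjusted over the 4311 genes with retained-intron transcripts it did not pass (adjusted p = 0.0891), and none of the 4311 did. Only 3.55% of those genes were lower with PMA at an unadjusted p under 0.05, the median difference over all was 1.41 points, and the GAS5 value was the 6th lowest.

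**Figure D4:**
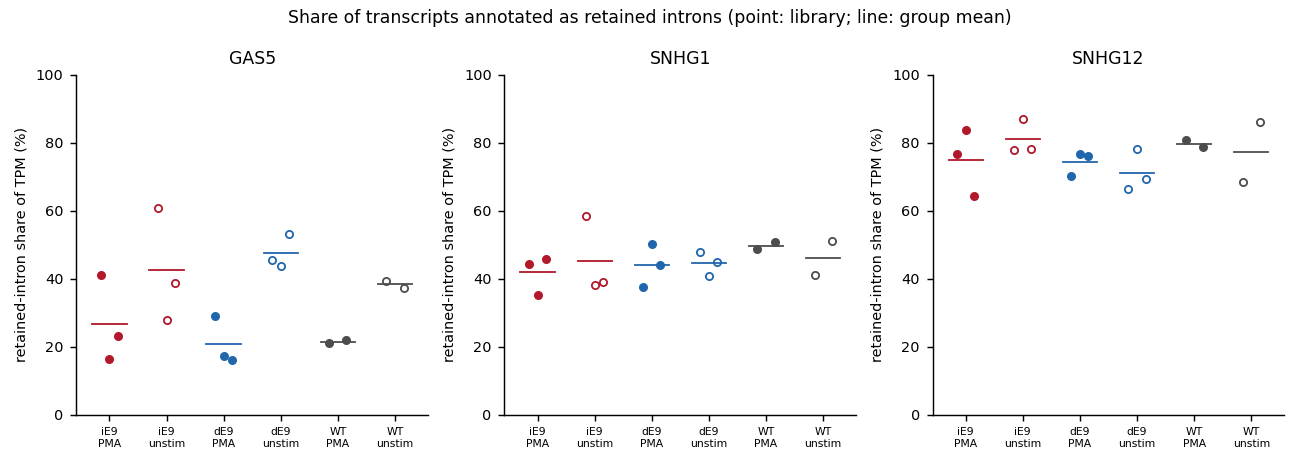
Share of TPM in transcripts annotated as keeping an intron (y axis, percent) in every library for GAS5, SNHG1 and SNHG12, with the groups along the x axis; points are libraries (filled with PMA, open unstimulated) and horizontal lines are group means. GAS5 libraries with PMA (16% to 41.0%) lie below the unstimulated ones (27.9% to 60.8%) within dE9 and WT cells and overlap them in iE9 cells, while the groups of SNHG1 and SNHG12 overlap.

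None of the other 5 genes had a p under 0.05 by the same test with PMA. In SNHG12 these transcripts made up 75.85% of TPM with PMA and 76.33% unstimulated. Within lines it differed by -0.17 points (exact permutation p = 0.967), SNHG1 by -0.08 (p = 0.983), SNHG16 by -0.35 (p = 0.62), SNHG6 by -0.45 (p = 0.819) and SNHG5 by -1.07 points (p = 0.125). Between iE9 and dE9 cells none of the 6 had an exact p under 0.05. The smallest was that of SNHG16, 2.16 points higher in iE9 cells (exact permutation p = 0.085), and GAS5 differed by 0.49 points (p = 0.93). These are 12 tests in all.

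The remaining genes of the snoRNA pathway were counted by list. Of 18 host long non-coding RNAs outside the 10, 17 were tested (SNHG18 was not), and PMA lowered 12 and raised 1 in iE9 cells, lowered 11 in dE9 cells and lowered 10 in WT cells, with medians of -1.59, -1.32 and -1.39 on the log2 scale. DANCR had a log2 change of -2.44 in iE9, -2.26 in dE9 and -2.16 in WT cells, and SNHG3 of -2.22, -1.92 and -1.95, all called. The exception was SNHG14, which rose in iE9 cells (0.47, adjusted p = 0.0332). Of 34 protein-coding hosts, PMA lowered 21 and raised 1 in iE9, lowered 13 and raised 1 in dE9 and lowered 15 in WT cells, with medians of -0.79, -0.36 and -0.60. IPO7, a nuclear import receptor, fell in iE9 (-1.01), dE9 (-1.13) and WT cells (-1.34), and the gene that rose was TPT1, which encodes a growth-related translation-controlled protein (0.80 in iE9, adjusted p = 0.0421, and 1.11 in dE9, adjusted p = 0.00654).

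Among 18 genes for the proteins that assemble and act with snoRNAs, PMA lowered 14 in iE9, 15 in dE9 and 12 in WT cells and raised none, with median log2 changes of -1.01, -1.16 and -1.08. DKC1, the pseudouridine synthase of box H/ACA particles and also counted among the protein-coding hosts, fell by 1.73, 1.62 and 1.53 on the log2 scale in iE9, dE9 and WT cells, and NOLC1, a nucleolar phosphoprotein that binds these particles, fell by 2.08, 2.09 and 2.0. Of 13 nonsense-mediated decay genes 2 were lower in iE9, 4 lower and 1 higher in dE9 and 1 lower in WT cells, with medians of -0.25, -0.22 and -0.16, where 14.4%, 16.5% and 11.3% of all genes were lower. DHX34, a helicase of that pathway, fell in all lines (-0.61, -0.76 and -0.62), while UPF2 fell in iE9 (-0.51) and dE9 cells (-0.38). UPF1 (-0.57) and SMG9 (-0.70) fell and PNRC2 rose (0.53) in dE9 cells; these 4 were chosen after their values were seen. Of 16 genes of mTOR signalling and of the binding of pyrimidine-run messages, 5 were lower and 1 higher in iE9, 6 lower in dE9 and 5 lower in WT cells, with medians of -0.36, -0.38 and -0.37. MLST8, an mTOR complex subunit, fell by 1.61, 1.63 and 1.60, AKT1S1, an mTORC1 inhibitor, by 1.26, 1.09 and 0.97, and the gene that rose was TSC1, an inhibitor upstream of mTOR (0.55 in iE9 cells, adjusted p = 0.0484).

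**Figure D5:**
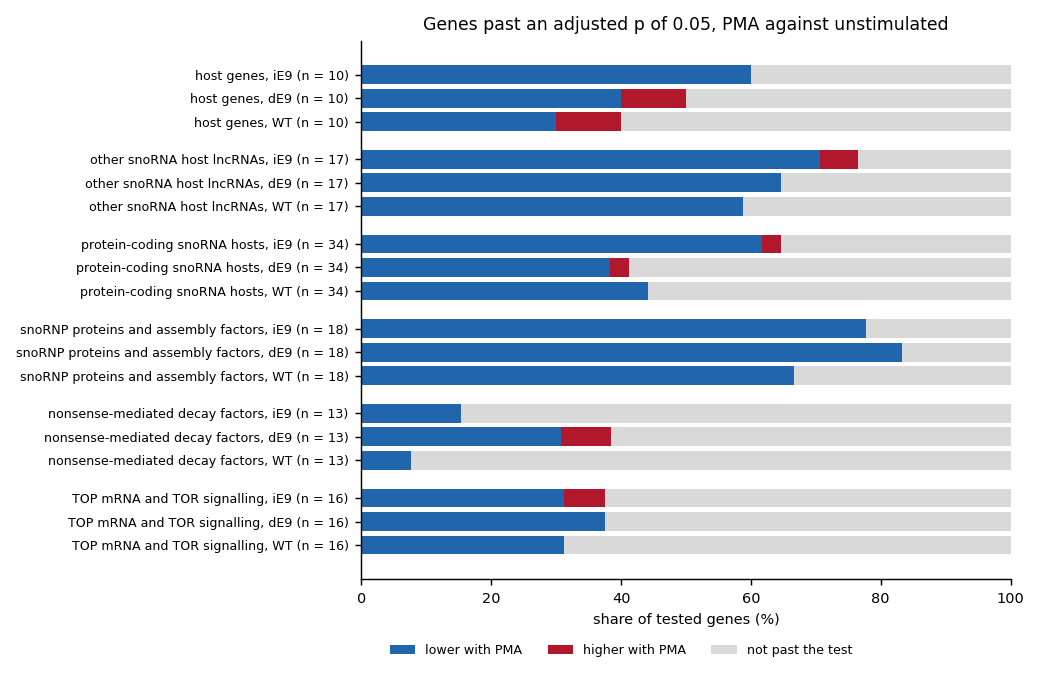
Share of the tested genes of each list (x axis, percent) that were lower (blue) or higher (red) with PMA or did not pass the test (grey), for the 10 host genes and 5 other lists in iE9, dE9 and WT cells (y axis, with the number tested). The bars of the snoRNA-particle genes are blue for 14, 15 and 12 of 18 genes, and those of the decay genes for 2, 4 and 1 of 13.

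Between iE9 and dE9 cells with PMA, 1 of the 17 other host long non-coding RNAs and 1 of the 34 protein-coding hosts were called, beside 2.61% of all genes (1.51% lower). ZFAS1, a host of box C/D snoRNAs, was lower in iE9 cells (log2 difference -0.98, adjusted p = 0.0464), as was the ribosomal protein gene RPL7A, also a host (-0.96, adjusted p = 0.0383). None passed in the snoRNA-particle, decay and mTOR lists. Unstimulated, SHQ1, an assembly factor of box H/ACA particles, was lower in iE9 than in dE9 cells (-1.07, adjusted p = 0.0291).

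Several hosts share their start region or overlap with another gene, and strandedness of the libraries is not given in the sources used here, so reads of overlapping genes may be mixed. ZBTB37, which runs from near GAS5 on the other strand (starts 800 bp apart) and overlaps it, rose with PMA in iE9 (1.03, adjusted p = 0.0146) and dE9 cells (1.04, adjusted p = 0.0111) and was at 0.83 in WT cells (adjusted p = 0.098). SLC3A2, the amino acid transporter chain that starts 188 bp from SNHG1, was not called, at -0.28 in iE9, 0.04 in dE9 and -0.23 in WT cells. TRNAU1AP, which overlaps SNHG12, fell in iE9 (-0.86, adjusted p = 0.00582) and dE9 cells (-0.78, adjusted p = 0.0082) and was at -0.70 in WT cells (adjusted p = 0.0544). EPB41L4A, the gene opposite EPB41L4A-AS1, was at 2.0, 2.13 and 1.97, not called in any line (adjusted p = 0.0991, 0.0565 and 0.177). FAM69B, which overlaps SNHG7, was not called (-0.82, -0.44 and -0.51), and AC015802.4, which starts 83 bp from SNHG16, averaged 1.46 TPM. GAS5-AS1 (0.99 TPM), MCMDC2 (0.13 TPM) and AC015802.6 (0.06 TPM), which overlap GAS5, SNHG6 and SNHG16, were at or near 0.

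The genes whose profile over the 16 libraries lay closest to the mean profile of the 10 hosts were picked by the root mean square difference of centred log2 CPM, among 9965 candidates. They were MRPL35 (0.109), NARS (0.119), WDR61 (0.127), BBS5 (0.127) and NDUFS7 (0.133). Among the hosts themselves the same measure ran from 0.192 for GAS5 to 0.614 for SNHG15, which lay farthest from their mean.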

How the data were processed

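PolyA-selected RNA-seq of 16 libraries was analysed. Per the submitters' processing notes, the authors used Salmon and DESeq2 with build hg38 (versions not given in the sources used here); the deposited Salmon files give estimated counts and TPM (transcript abundance scaled by length and library total) per GENCODE 29 transcript. Here gene counts are sums of estimated counts over transcripts, taken to whole numbers, and TPM were summed likewise for levels. Of 58295 genes, 33304 had a count. Genes were filtered with filterByExpr, scaled by TMM and tested with the quasi-likelihood test of edgeR 4.0.16 (R 4.3.3) in 1 fit of all 16 libraries with a coefficient per group; p-values were Benjamini-Hochberg adjusted over 18073 genes, or 75155 transcripts. Log2 changes and CPM come from counts, which transcript length does not correct. The biological coefficient of variation was 31.8%. The fitting code was tested on simulated data. Retained-intron and exon 9 shares are percentages of TPM, compared by exact permutation.

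Alternatives were another scaling, no filter, DESeq2 1.42.0, the length offset, only the compared groups, replicate blocks and leaving out libraries. In edited lines, libraries of the same number deviated together between PMA and unstimulated cells (correlations 0.24 to 0.305 in dE9, 0.19 to 0.441 in iE9). The labels give only a number, so pairing was inferred from these values and is not known. In iE9 cells the highest value was that of the libraries numbered 1. Those numbered 2 and 3 gave 0.226 and 0.19 with the same number, and 0.153 and 0.085 across numbers. The 2 WT pairs gave only 0.073, yet the block within each line paired the WT libraries too. Its values that involve WT cells rest on that pairing. The members and lists were chosen with earlier results of these data known. The text names all 10 hosts, up to 2 called genes per list and direction (smallest adjusted p in WT cells), genes overlapping a host or starting within 1 kb of it, and the 5 genes of closest profile. Lists with few calls are named in full, chosen after their values were seen.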

Additional observations from a re-analysis of the deposited data

Results flagged for a closer look

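SNHG15 stood out because its PMA response took opposite directions between lines on the CPM scale: every PMA library was lower than every unstimulated one in iE9 cells, and every PMA library was higher in dE9 and WT cells. The fall in iE9 cells was not called in edgeR (log2 change -0.42, adjusted p = 0.0535), and on the TPM scale the iE9 groups overlapped. The response in iE9 minus that in WT cells was -1.42 on the log2 scale, and in iE9 minus that in dE9 cells it was -1.1. The test of the difference itself gave an unadjusted p of 2.9e-05 and 0.000124 in edgeR across all genes, which did not pass adjustment (adjusted p = 0.13 and 0.234), while DESeq2 called both. Without both iE9 libraries numbered 1 the difference from WT was -1.31 (adjusted p = 0.211).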

How the results depend on the processing

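Of the 19 calls on single host genes, 13 held under every alternative, 6 were lost in some, and none reversed. With PMA in WT cells 4 genes were called, against 8 with only the compared groups in the fit, 8 with the replicate block within each line and 7 without both iE9 libraries numbered 1. Between iE9 and dE9 cells with PMA 2 were called, against 4 without the filter, 4 by DESeq2 and 0 with only the compared groups; between iE9 and WT cells 2 were called, against 1 with the length offset and 1 without both iE9 libraries numbered 1. For the difference of PMA responses 0 were called, against 1 without the filter, 2 by DESeq2 and 1 with the block within each line for iE9 minus dE9, and 1, 2 and 1 under these settings and 1 with only the compared groups for iE9 minus WT. Without the filter 2 transcripts were called in iE9 and 1 in dE9 cells, against 4 and 3. As a share of counts the SNHG12 retained-intron difference was 0.07 points, and over coding transcripts the exon 9 share of iE9 minus WT with PMA was -3.11 points, both with reversed sign; the cause was not tested.

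Leaving out 1 library gave 5 to 7 called genes with PMA in iE9, 4 to 5 in dE9 and 3 to 4 in WT cells, 2 to 3 between iE9 and dE9 and 1 to 2 between iE9 and WT cells with PMA, and 0 to 2 for iE9 minus dE9 responses. Transcript calls were 2 to 5 in iE9 and 1 to 6 in dE9 cells. Retained-intron differences with PMA were -22.16 to -16.68 points for GAS5, -1.76 to 2.13 for SNHG1, -3.13 to 2.79 for SNHG12, -0.71 to 0.26 for SNHG16, -1.39 to -0.47 for SNHG5 and -1.82 to 1.54 for SNHG6. For iE9 minus dE9 they were -4.09 to 4.13 for GAS5, -3.99 to 1.07 for SNHG1, 2.98 to 7.85 for SNHG12, 1.26 to 2.62 for SNHG16, 0.13 to 1.5 for SNHG5 and 2.18 to 6.86 for SNHG6. The WT groups hold 2 libraries each, which limits every comparison with them. With the block within lines 9 genes were called with PMA in iE9 and 6 in dE9 cells, and in the edited lines it changed no call except for SNHG12, SNHG15 and EPB41L4A-AS1, which it added.

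Over all genes, the number called with PMA in WT cells was 4038, against 8284 with only the compared groups and 6590 with the block within each line, and it was 1419 to 1904 without any 1 of the 4 WT libraries. Between iE9 and dE9 cells with PMA it was 471, against 1801 without the filter, 1292 by DESeq2, 304 with the length offset and 47 with only the compared groups, and unstimulated 311, against 1319, 867, 180 and 161, and 152 without both iE9 libraries numbered 1. Between iE9 and WT cells with PMA it was 203, against 1162, 732, 119, 665 and 84 under these settings, and unstimulated 249, against 1220, 846 and 156 under the first 3 of them and 99 without both iE9 libraries numbered 1. Leaving out 1 library gave 113 to 1035 and 110 to 276 between iE9 and dE9 cells with PMA and unstimulated, and 24 to 73 and 18 to 139 between iE9 and WT cells. For iE9 minus dE9 responses it was 0, against 480 without the filter, 130 by DESeq2, 61 with the block within each line, 461 without dE9 PMA library 1 and 15 without dE9 PMA library 3. For iE9 minus WT it was 0, against 292, 62 and 35 under the first 3 of these settings and 30 with only the compared groups, and for dE9 minus WT 0, against 49 without the filter and 22 without dE9 PMA library 1.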
